A study of Mus musculus with 8 samples.

Results

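Alveolar type 1 cell genes are described here as 8 genes of the mouse, Ager, Hopx, Pdpn, Rtkn2, Clic5, Emp2, Akap5 and Cav1, out of 52195 genes in a table of bulk RNA sequencing values. The rows were taken by gene symbol and all 8 were found, but the list itself was drawn up with earlier results of these data known. The table holds 8 libraries of whole lung, kidney, liver and small intestine, 2 biological replicates per tissue, in FPKM, fragments per kilobase of transcript scaled to the size of the library. The study collected these tissues as bulk samples for estimating their cell type composition.

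All 4 groups came from male mice of 6 to 10 weeks of age, labelled C57BL/6 and given as C57BL/6J in the methods, for which no treatment and no engineered allele is given. Each tissue was excised, washed in PBS and ground to powder whole, so a library holds every cell type of the organ and any blood or neighbouring tissue left on it. By the methods, all 4 tissues were taken from each mouse, so libraries of different tissues share mice, but the labels do not say which. The tests below treat the libraries as separate and measure only the spread between 2 libraries per tissue. In such bulk samples, fewer cells of a type and less RNA per cell cannot be told apart.

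The air spaces of the lung are lined by 2 epithelial cell types. Alveolar type 1 cells are flat and very thin, cover most of the surface and form the gas exchange barrier together with the capillary endothelium beneath them, while type 2 cells are cuboidal, secrete surfactant and can give rise to type 1 cells. Type 1 cells are known for genes of membranes, caveolae and the cortical cytoskeleton, and few of these genes belong to that cell alone. Pdpn and Clic5 are also used by podocytes, the filter cells of the kidney glomerulus. Cav1 is abundant in endothelium, smooth muscle and fat, Emp2 is found in several epithelia and endothelia, and Hopx is used in the heart and in intestinal epithelium.

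Promoter stretches are shown for Ager, the member with the largest lung difference on the log2(FPKM + 1) scale used below, and for Hopx, whose stretch holds a motif searched for. Each is the 250 bases before a RefSeq transcription start in assembly GRCm38.p6, written 5′ to 3′ along the gene. Capitals mark a match to CTCAAG, the core letters of the motif of NKX2-1, the lung transcription factor, on either strand.
Ager, chr17:34597600-34597849, plus strand: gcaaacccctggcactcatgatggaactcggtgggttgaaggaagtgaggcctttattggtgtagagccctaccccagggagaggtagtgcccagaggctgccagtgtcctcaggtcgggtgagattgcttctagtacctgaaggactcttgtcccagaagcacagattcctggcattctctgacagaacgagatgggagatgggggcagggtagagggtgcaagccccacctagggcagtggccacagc
Hopx, chr5:77115124-77115373, minus strand: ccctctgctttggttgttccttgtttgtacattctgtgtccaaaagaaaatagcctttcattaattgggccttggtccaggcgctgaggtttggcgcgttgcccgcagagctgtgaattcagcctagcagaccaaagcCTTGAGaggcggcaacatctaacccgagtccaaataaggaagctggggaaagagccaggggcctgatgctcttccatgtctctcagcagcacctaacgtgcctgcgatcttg

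RefSeq gave 9 such promoters for 7 of the members, Rtkn2 having no entry. CTCAAG, searched on both strands, was in 1 of the 9, the Hopx stretch above, where it begins 112 bases before the start. The same letters were in 13.3% of all 32851 promoters of that length. GGAATG, the core of the TEAD motif read by the YAP and TAZ coactivators, was in 0 of the 9 against 12.6% of all promoters, and CAAGTG, a second NKX2-1 form, in 0 of the 9 against 11.6%. Base composition varied among the members. The Ager stretch holds 3 CpG, the Pdpn stretch 2 and the Akap5 stretch 20, beside a median of 6 over all promoters. A letter match is a description of these windows and not a binding site.

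The libraries held between 9164183 and 21444657 reads by the read sizes recovered from the FPKM values, and 3 reads on a transcript of 1 kb equal an FPKM between 0.140 and 0.327. This covers counting error only. Kidney libraries were the deepest and liver libraries among the shallowest. Of the 16328 genes tested, most sat higher in lung on the deposited scale, with a median difference from the other tissues of 0.82 in log2(FPKM + 1), against -0.02 after median-of-ratios scaling. Of the calls between lung and the mean of the other tissues, 6652 were higher and 1349 lower as deposited, and 2387 and 2616 after that scaling. Member differences below are therefore to be read against 0.82, and the rescaled values are given once.

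In lung, all 8 members exceeded the averaged level of kidney, liver and small intestine by limma on log2(FPKM + 1), with an adjusted p (Benjamini-Hochberg) under 0.05 and a difference over 1, where 40.7% of all genes tested were called higher. Their differences ran from 3.67 for Clic5 to 8.65 for Ager, far above the median of 0.82 over all genes, and from 2.65 to 7.58 after median-of-ratios scaling. The rescaled values were 7.58 for Ager, 5.79 for Emp2, 4.80 for Cav1, 4.32 for Akap5, 4.13 for Rtkn2, 3.97 for Hopx, 3.93 for Pdpn and 2.65 for Clic5. In all 8 members both lung libraries were above the other 6 libraries, which held for 51.4% of the genes tested. Rtkn2 and Akap5 reached the FPKM of 1 needed for testing only in lung, which fixed this order for them. Their p values here and below therefore lend it no support. The same holds for any listed gene that reached this FPKM only in lung. An exact two-sided permutation test over the libraries gave p = 0.0357 for 7 of the 8 members, the smallest p that 2 libraries against 6 can reach, and p = 0.0714 for Clic5, where 2 of 28 arrangements were as extreme. Against single tissues, 8 of 8 were called higher in lung than in kidney (background 41.4%), than in liver (55.5%) and than in small intestine (30.6%). Of the calls over all genes, 82.4%, 88.5% and 75.2% were higher in lung in these 3 comparisons as deposited, and 50.6%, 52.0% and 48.7% after median-of-ratios scaling.

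**Figure D1:**
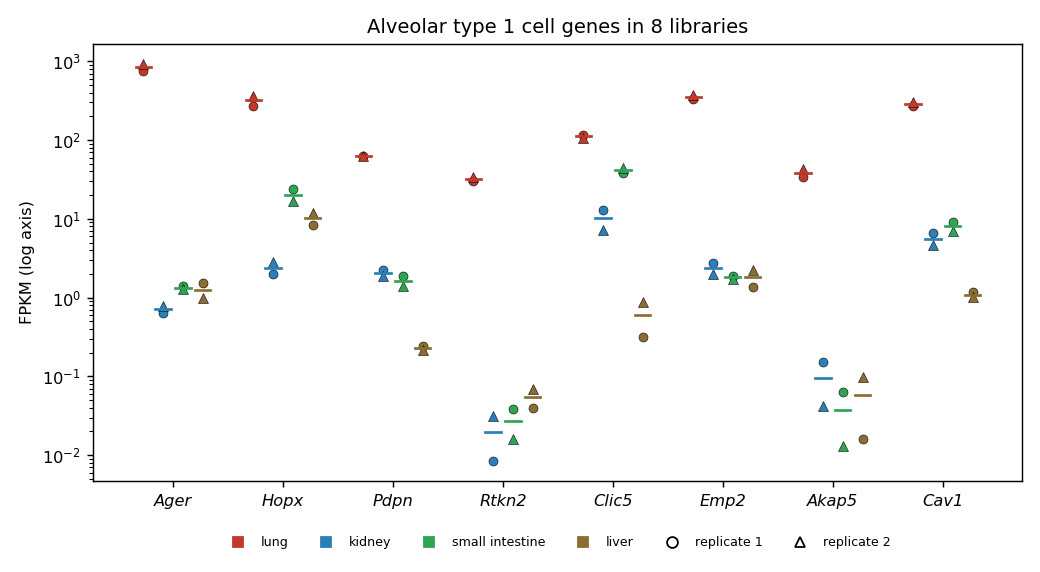
FPKM on a log10 axis for each of the 8 genes in the 8 libraries, one point per library and one short bar per tissue mean of 2 replicates. The lung points stand above all others in every gene, by a wide gap in Ager, Emp2, Rtkn2 and Akap5. For Rtkn2 and Akap5 the points outside lung rest on few reads. The gap is narrowest in Clic5, where small intestine reached 37.8 and 44.7.

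Within lung, the members covered a wide range of levels, which FPKM allows to be compared per length of transcript. Ager was the highest at 836 ± 130 FPKM (SD, n = 2), in place 42 of the 16328 genes by lung mean. Emp2 at 350.3 ± 25.9, Hopx at 321 ± 65.6 and Cav1 at 289 ± 21.2 came next, and the ranges of Hopx in 2 libraries overlapped those of both neighbours. Clic5 followed at 113 ± 7.04, then Pdpn at 62.5 ± 0.196, and these were separated by more than their spread. Akap5 at 38.3 ± 6.22 and Rtkn2 at 32.1 ± 2.08 were the lowest, in places 1394 and 1673. Their libraries did not overlap but lay close, 33.9 and 42.7 against 30.6 and 33.6. The members differed between the lung libraries by 0.01 (Pdpn) to 0.42 (Hopx) in log2, with a median of 0.15 over all genes tested, and Hopx, Akap5 and Ager were above that median by the most. Of the 8, 6 were higher in lung replicate 2, as were 59.6% of all genes tested.

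Ager encodes the receptor for advanced glycation end products (RAGE), a cell surface receptor of the immunoglobulin superfamily that type 1 cells carry on their basal side (gene at chr17:34597862-34600936 in GRCm38). It was at 744 and 928 FPKM in lung, 0.632 and 0.782 in kidney, 1.40 and 1.28 in small intestine, and 1.53 and 0.995 in liver. The lung level was 625 times that of small intestine, the next tissue, and no other member was so far from its next tissue among those with enough reads for a ratio. By limma the difference from the mean of the others was 8.65 (SE 0.15, adjusted p = 1.62e-07), in place 7 among all genes tested, and 7.58 after rescaling. The 3 other tissues lay between 22 and 31 reads per library, against 15554 and 24702 in lung. None of the pairs among kidney, liver and small intestine was called for Ager. The surfactant genes of type 2 cells, which are not genes of these other organs, were also read there at low levels. Ager in kidney, liver and small intestine was at 0.0846%, 0.151% and 0.160% of its lung level. Sftpc, which encodes surfactant protein C, was at 0.0675%, 0.118% and 0.0364%, and Sftpb, for surfactant protein B, at 0.0454%, 0.119% and 0.0341%. The source of these few reads was not tested.

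Pdpn encodes podoplanin, a mucin-like membrane glycoprotein named for podocytes that tethers the cell membrane to actin through ezrin and moesin, and that binds the platelet receptor CLEC-2 (chr4:143267431-143299564). It was at 62.7 and 62.4 FPKM in lung, 2.26 and 1.88 in kidney, 1.88 and 1.41 in small intestine, and 0.240 and 0.213 in liver. Lung was 30.3 times above kidney, the next tissue, and the lung difference from the mean of the others was 4.89 (SE 0.14, adjusted p = 3.26e-07). Liver, at 4 reads in each library, stood below the other tissues. Kidney exceeded liver by 1.32 (adjusted p = 0.000687) and small intestine exceeded liver by 1.10 (adjusted p = 0.00115), while kidney and small intestine differed by 0.22 (adjusted p = 0.349). The call between small intestine and liver was lost after median-of-ratios scaling, at 0.86, after quantile normalization, at 0.61, and without small intestine replicate 1, at 0.97. The same difference was 2.41 with a pseudocount of 0.1 and 2.69 by voom on recovered reads, so its size rests on how the few liver reads are treated.

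Kidney Pdpn can be set beside podocyte genes, which differed between the kidney libraries. Podxl, for podocalyxin, was at 23.5 FPKM in replicate 1 and 7.27 in replicate 2, and Nphs1, for nephrin, at 2.51 and 0.846. The whole library leaned the same way, with median-of-ratios size factors of 1.03 in replicate 1 and 0.719 in replicate 2. Clic5 was at 13.0 against 7.31, a wider gap than that of the size factors, and Pdpn at 2.26 against 1.88, a narrower one. Cav1, Emp2 and Akap5 were also higher in replicate 1, while Ager, Hopx and Rtkn2 were higher in replicate 2. Podxl, which endothelium uses as well, was at 48.9 and 50.5 in lung, where Nphs1 was at 0.0464 and 0.109. The part of podocytes in the kidney values was not tested.

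Emp2 encodes epithelial membrane protein 2, a small protein with 4 membrane passes that organises integrins and caveolins at the cell surface (chr16:10281749-10313968). It was at 332 and 369 FPKM in lung, 2.77 and 1.998 in kidney, 1.86 and 1.75 in small intestine, and 1.36 and 2.25 in liver. The liver libraries overlapped both other tissues, kidney lay just above small intestine, and none of these pairs was called. Lung was 147 times above kidney, with a difference from the mean of the others of 6.89 (SE 0.17, adjusted p = 2.77e-07), in place 20. Relatives of Emp2 were also measured. All 3 tested genes of the PMP22 and EMP family were higher in lung than in the mean of the others, where 40.7% of all genes were. Pmp22, known from the myelin of peripheral nerves, was at 206 and 227 in lung and still at 26.2 and 116 in small intestine. Emp1 was at 36.2 and 27.1 in lung and 16.6 and 34.9 in small intestine, and these groups overlapped.

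Cav1 encodes caveolin-1, the main coat protein of caveolae, the flask-shaped pits of the plasma membrane (chr6:17306335-17341452). It was at 274 and 304 FPKM in lung, 6.54 and 4.70 in kidney, 9.09 and 6.92 in small intestine, and 1.17 and 1.01 in liver. Lung was 36.1 times above small intestine, with a difference from the mean of the others of 5.86 (SE 0.16, adjusted p = 3.03e-07). Liver was again the lowest. Kidney exceeded it by 1.65 (adjusted p = 0.000407) and small intestine by 2.10 (adjusted p = 6.98e-05), and kidney and small intestine differed by -0.45 (adjusted p = 0.101). Of 7 other genes of caveolae tested, 6 were higher in lung than in the mean of the others, with a median of 4.59, beside 40.7% and a median of 0.82 over all genes. Cav2, the partner of caveolin-1, was at 83.7 and 90.8 in lung and at most 9.48 elsewhere. Cavin1, which is needed for caveolae to form, was at 83.4 and 92.2 in lung, and Cavin2 at 253 and 254. Pacsin2, a membrane-bending protein, differed by 0.85 and stayed under the limit of 1.

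Endothelium is a cell type rich in Cav1. All 10 endothelial genes tested were higher in lung than in the mean of the others, with a median difference of 4.07, beside 40.7% and 0.82 over all genes. Against kidney alone 9 of the 10 were called higher, where 41.4% of all genes were, and Emcn was not called, at 0.68. Pecam1, the junction protein of endothelium, was at 99.1 and 109 FPKM in lung and at 4.06%, 2.21% and 2.86% of that level in kidney, liver and small intestine. Cav1 stood at 1.95%, 0.378% and 2.77% of its lung level in the same tissues. All 5 smooth muscle genes tested and all 3 of fat cells were also higher in lung than in the mean of the others, where 40.7% of all genes were. After quantile normalization 1 of the 3 fat cell genes was still called, where 15.6% of all genes were. Against small intestine alone, 0 of the 5 and 0 of the 3 were called higher, where 30.6% of all genes were. In each list 1 gene was lower, where 1644 of all 16328 genes were. Acta2, the actin of smooth muscle, was at 149 and 152 in lung and 139 and 110 in small intestine. The share of Cav1 that came from any of these cell types was not tested.

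Clic5 encodes a chloride intracellular channel protein that sits with ezrin under the membrane of microvilli and of podocyte foot processes (chr17:44188584-44280172). It was at 117 and 108 FPKM in lung, 13.0 and 7.31 in kidney, 37.8 and 44.7 in small intestine, and 0.316 and 0.875 in liver. The 4 tissues did not overlap and ran from lung through small intestine and kidney to liver. The lung difference from the mean of the others was 3.67 (SE 0.23, adjusted p = 4.78e-06), in place 399, the lowest of the members. Small intestine was at 36.7% of the lung level, and lung exceeded it by 1.43 (SE 0.28, adjusted p = 0.00275), beside a median of 0.57 over all genes. After median-of-ratios scaling this fell to 0.65 (adjusted p = 0.0582) and was no longer called. Small intestine exceeded liver by 4.74 (adjusted p = 4.92e-06) and kidney by 1.97, given as -1.97 for kidney minus small intestine (adjusted p = 0.000743). The difference between small intestine and liver was 6.02 with a pseudocount of 0.1 and 6.25 by voom on recovered reads. Kidney exceeded liver by 2.78 (adjusted p = 0.00015).

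The brush border gene Vil1, for villin of intestinal microvilli, was at 381 and 523 FPKM in small intestine and 33.4 and 25.4 in kidney, and at 1.24 or less in liver and lung. Ezr, for ezrin, the linker of membrane and actin that binds both Clic5 and podoplanin, was at 143 and 243 in small intestine, 68.7 and 59.6 in kidney, 72.9 and 77.2 in lung, and 0.929 and 1.47 in liver. Liver was thus the lowest tissue for Ezr as for Clic5. The 4 other CLIC genes tested were all higher in lung than in the mean of the others, beside 40.7% of all genes. Clic3 was at 149 and 186 in lung and at most 4.74 elsewhere, which is a wider gap than that of Clic5. Clic1, present in most cells, was at 92.5 and 101 in lung and 72.7 and 88.5 in small intestine, and was not called between these tissues.

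Rtkn2 encodes rhotekin-2, a protein also known from lymphocytes (chr10:67979570-68059740). It was at 30.6 and 33.6 FPKM in lung, 0.00841 and 0.0312 in kidney, 0.0385 and 0.0159 in small intestine, and 0.0393 and 0.0698 in liver. These low values stand on 1 to 4 reads per library, against 1659 and 2314 reads in lung, so no ratio is given. The fitted difference of 4.999 (SE 0.12, adjusted p = 2.73e-07) depends on the pseudocount and was 7.92 with a pseudocount of 0.1. Rtkn2 was tested only because of its lung values, so being higher there was fixed by the filter. Of 5 T cell genes tested, 3 were higher in lung than in the mean of the others (40.7% of all genes), 5 with a pseudocount of 0.1 (54.3%), and 2 were higher in lung than in small intestine (30.6%), counts too small to set apart from these shares. Cd3d was at 5.42 and 8.38 FPKM in lung and 2.77 and 2.53 in small intestine, and Cd3e at 1.48 and 1.83 in lung and 1.78 and 1.39 in small intestine, where Rtkn2 had 2 reads and 1 read. The part of T cells in the lung level of Rtkn2 was not tested. Its closest relative, Rtkn, was not called (0.41, adjusted p = 0.0770), while the GTPase gene Rhob was at 115 and 132 in lung and at most 25.3 elsewhere. The gene overlaps the antisense transcript Gm16212 over 3.89% of its exons, and that transcript was at 0.844 in lung replicate 2 and at 0 in the rest.

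Akap5 encodes an A-kinase anchoring protein, a scaffold that holds protein kinase A and calcineurin at the membrane and is best known from synapses (chr12:76324891-76334153). It was at 33.9 and 42.7 FPKM in lung, 0.150 and 0.0423 in kidney, 0.0626 and 0.0129 in small intestine, and 0.0160 and 0.0994 in liver. Outside lung it had between 1 and 22 reads per library, and none of the pairs of other tissues was called. The lung difference was 5.20 (SE 0.14, adjusted p = 3.03e-07), and 7.92 with a pseudocount of 0.1. Like Rtkn2, Akap5 passed the filter on low values through lung alone. Of 8 genes for its partners and a sister scaffold, 4 were higher in lung than in the mean of the others, a share near the 40.7% of all genes tested. Prkar2b, a regulatory subunit of protein kinase A, was at 8.78 and 8.79 in lung and at most 1.32 elsewhere. Prkaca, the catalytic subunit, differed by 0.78, close to the median of all genes, and was not called.

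Hopx encodes a small homeodomain protein that does not bind DNA itself and acts as a cofactor of transcription (chr5:77086988-77115121). It was at 274 and 367 FPKM in lung, 1.97 and 2.82 in kidney, 23.8 and 16.7 in small intestine, and 8.28 and 12.01 in liver. Lung was 15.8 times above small intestine, and the difference from the mean of the others was 5.11 (SE 0.21, adjusted p = 9.41e-07). Hopx was the member in which kidney, not liver, was the lowest tissue by call. Liver exceeded kidney, at -1.71 for kidney minus liver (adjusted p = 0.00152), and small intestine exceeded kidney, at -2.64 (adjusted p = 0.000113). Small intestine and liver differed by 0.93 (adjusted p = 0.0174), under the limit of 1.

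Hopx shares 27.2% of its exon length with the antisense transcript Hopxos. Whether the libraries keep strand is not stated, so reads of the shared stretch could not be assigned. Hopxos was at most 0.92 FPKM in any library. Genes of heart muscle, where Hopx is also used, were present in the lung libraries. Their summed level was 259 and 266 FPKM in lung, 8.65 and 9.41 in small intestine and at most 1.74 in the other libraries. Of 8 listed genes 6 were tested. All 6 were higher in lung than in the mean of the others, where 40.7% of all genes were. Actc1, the cardiac actin, was at 81.8 and 89.6 in lung and at most 0.218 elsewhere. Such a gene passed the filter only through lung, which fixed its place above the other tissues. Whether heart or pulmonary vein muscle adds to the Hopx level in lung was not tested. Nkx2-1, which encodes the factor whose motif is shown above, was at 52.9 and 58.6 in lung and at most 0.142 elsewhere.

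**Figure D2:**
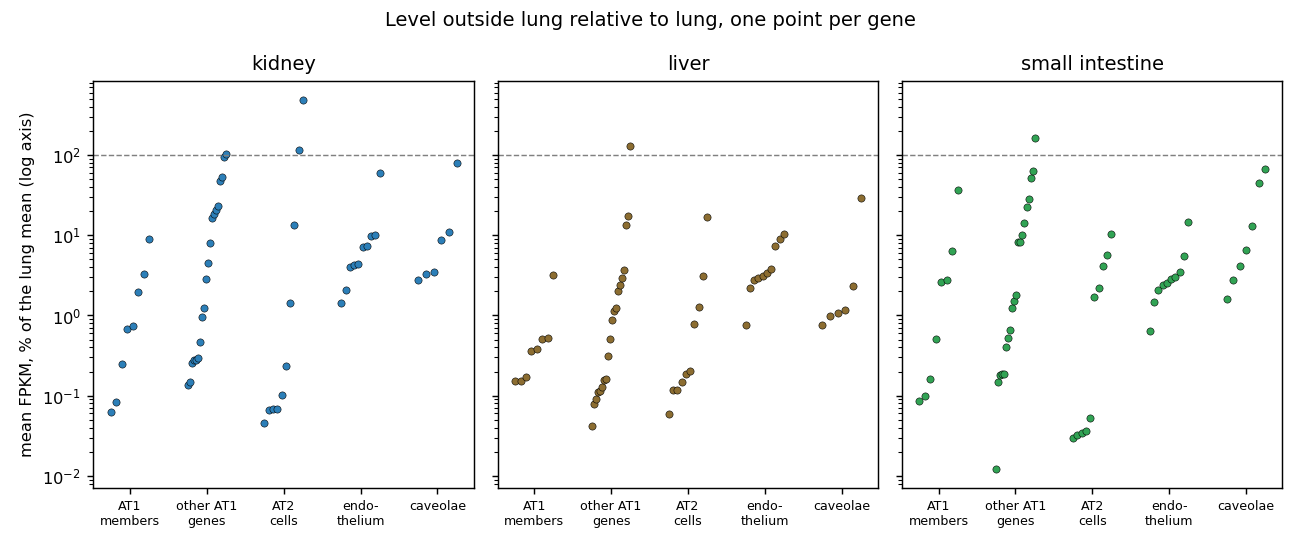
Mean FPKM in kidney, liver and small intestine as a percent of the lung mean, on a log10 axis, for the 8 members and for genes of other alveolar type 1, type 2, endothelial and caveolar lists, with genes at 0 left out. Ager lies at 0.0846% to 0.160%, above the surfactant genes Sftpc and Sftpb in each tissue, and Clic5 reaches 36.7% in small intestine.

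Among the 3 other tissues, the members thus split. Ager, Emp2, Rtkn2 and Akap5 were called in no pair. Between kidney and liver, Pdpn, Clic5 and Cav1 were higher in kidney, where 16.2% of all genes tested were, and Hopx was higher in liver, where 6.9% of all genes were. Between small intestine and liver, Pdpn, Clic5 and Cav1 were higher in small intestine, where 28.3% of all genes were, and no member was lower, where 7.89% of all genes were. Between kidney and small intestine, Hopx and Clic5 were lower in kidney, where 18.8% of all genes were, and no member was higher, where 10.7% were. Of the calls over all genes in these 3 pairs, 70.1%, 78.2% and 36.3% were higher in the tissue named first as deposited, and 51.9%, 53.0% and 47.5% after median-of-ratios scaling. The comparisons share their libraries and do not count as separate evidence. Summed over the members, the level was 1869 and 2214 FPKM in lung, 76.0 and 72.8 in small intestine, 27.3 and 19.6 in kidney, 13.0 and 17.5 in liver, and most of the sum outside lung was Clic5 and Hopx.

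**Figure D3:**
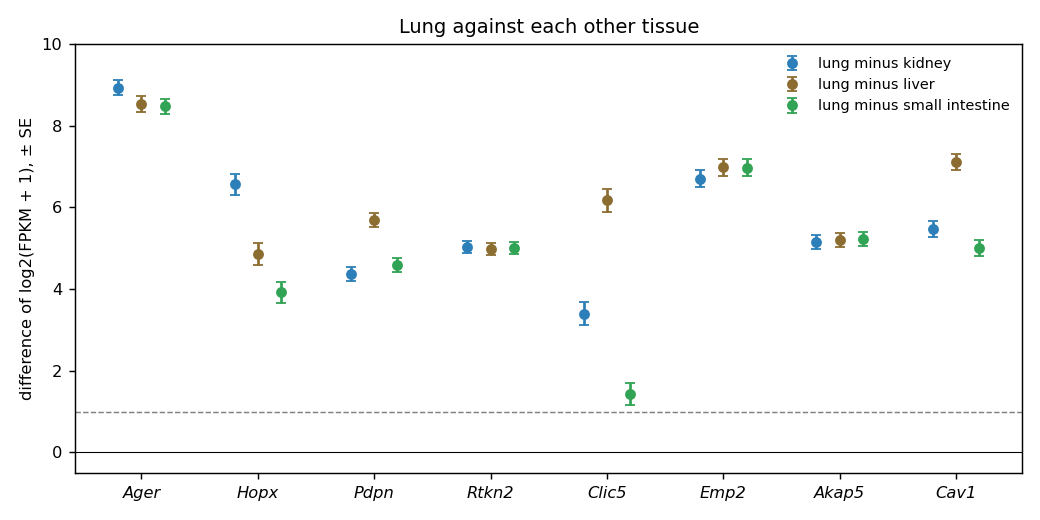
Difference of log2(FPKM + 1) between lung and each of kidney, liver and small intestine for the 8 members, with error bars of 1 SE from limma. Ager lies between 8.48 and 8.93 in all 3 comparisons, while Clic5 runs from 1.43 against small intestine to 6.17 against liver.

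The size of the difference varied with the tissue set against lung. Ager ran from 8.48 against small intestine to 8.93 against kidney, and Emp2 from 6.71 to 6.98. For Rtkn2 and Akap5 the other tissues are so low that the pseudocount sets their values near 0, and a range over tissues says nothing of them. Hopx ran from 3.92 against small intestine to 6.56 against kidney. Cav1 ran from 5.02 against small intestine to 7.11 against liver, and Pdpn from 4.38 against kidney to 5.69 against liver. Clic5 ran from 1.43 against small intestine to 6.17 against liver.

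A longer list of genes that mark type 1 cells held 20 others. All 20 were higher in lung than in the mean of the others, with a median difference of 3.82, beside 40.7% and 0.82 over all genes. Sec14l3 was at 421 and 365 FPKM in lung, Gprc5a, a retinoic acid-induced receptor, at 271 and 271, and Aqp5, the water channel of the apical membrane, at 135 and 136. Aqp5 was at most 1.67 in the other libraries. Against kidney, 17 of 20 were called higher, where 41.4% of all genes were. The exceptions were Sema3b and the collagen genes Col4a3 and Col4a4, which build the basement membrane of both the alveolus and the glomerulus. Col4a3 was at 13.8 and 4.14 in kidney and 8.83 and 8.53 in lung, and like the podocyte genes it was higher in kidney replicate 1. Against liver, Igfbp2 was the exception, at 156 and 113 in liver and 91.1 and 117 in lung. Against small intestine, Lmo7, Sema3b and Cyp2b10 were not called, and Cyp2b10 was at 202 and 227 in small intestine and 136 and 125 in lung.

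Type 2 cell genes were higher in lung than in the mean of the others in 10 of 10, with a median difference of 6.34, beside 40.7% and 0.82 over all genes. Their medians as a percent of lung were 0.17 in kidney, 0.20 in liver and 0.87 in small intestine, against 0.71, 0.37 and 1.57 for the 8 members and 5.76, 3.26 and 2.69 for endothelial genes. Napsa, an aspartic protease also used by the proximal tubule, was an exception, at 493% of lung in kidney, as was Abca3 at 115%. Of 5 lymphatic endothelial genes tested, which share Pdpn, 4 were higher in lung in the same comparison, where 40.7% of all genes were. After quantile normalization 2 were, where 15.6% of all genes were. Lyve1 was at 127 and 114 FPKM in lung. Prox1, which defines that lineage and is also a hepatocyte gene, was at 0.427 and 0.393 in lung and 4.03 and 8.63 in liver. All 5 mesothelial genes tested were higher in lung than in the mean of the others, where 40.7% of all genes were. Against small intestine alone 4 of them were higher, where 30.6% of all genes were. The other 1 was lower, where 1644 of all 16328 genes were. Of 7 intestinal genes, 5 were lower in lung than in the mean of the others, where 1349 of all 16328 genes were. Cdh1, for the E-cadherin of epithelia in general, was the 1 intestinal list gene called higher (1.15), and this call was lost after median-of-ratios or quantile scaling and without kidney replicate 2 or lung replicate 2.

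Genes for partners of the receptors were also described as lists. Of all genes tested, 40.7% were higher in lung than in the mean of the others on the deposited scale and 14.6% after median-of-ratios scaling. All 7 RAGE ligands tested were higher in lung as deposited, and 4 after scaling. S100a8 and S100a9, which neutrophils carry, differed between the lung libraries, at 23.6 and 111 and at 36.3 and 214 FPKM, while Ager was at 744 and 928 in them. Of 8 podoplanin partners, 7 were higher as deposited and 4 after scaling. Msn, for moesin, was at 103 and 109 in lung and at most 11.5 elsewhere. Of 4 HOPX partners, 4 were higher as deposited and 1 after scaling, so these counts fell with the scale as the share over all genes did.

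**Figure D4:**
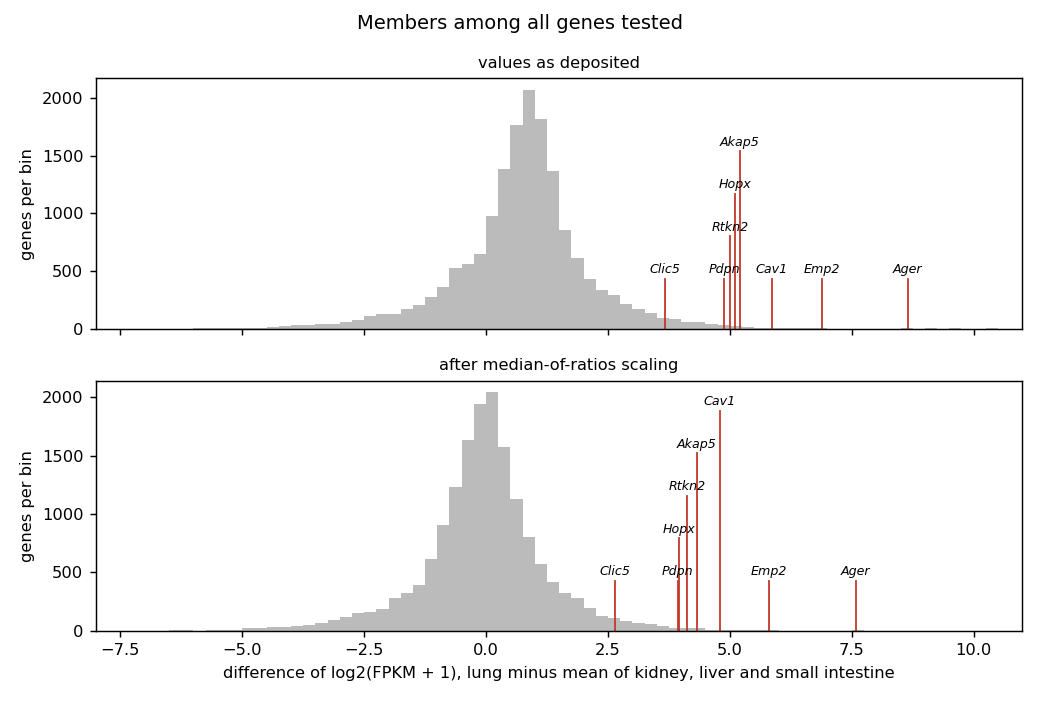
Histogram of the lung difference from the mean of the other tissues in log2(FPKM + 1) for all 16328 genes tested, as deposited and after median-of-ratios scaling, with the 8 members as red lines. The mass of genes moves from a median of 0.82 to -0.02, and the members keep to the right of it, Clic5 nearest at 3.67 and 2.65.

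The genes with the most similar pattern to each member were found by the Euclidean distance of log2(FPKM + 1) over the 8 libraries, where smaller is closer. Ager was nearest to Scgb3a2 (1.32) and Scgb3a1 (1.47), the secretoglobins of airway club cells. Emp2 was nearest to the endothelial genes Cldn5 (1.64) and Thbd (1.69), and Cav1 to Ogn (1.12) and Cnn2 (1.66). Pdpn was nearest to Fam189a2 (0.642) and Ehd2 (0.685), of which Ehd2 stabilises caveolae. Rtkn2 was nearest to Sfta2 (0.299) and Prx (0.405). Akap5 was nearest to Ccdc153 (0.350) and Foxj1 (0.433), genes of ciliated airway cells. Hopx was nearest to Vim (2.09) and Laptm5 (2.19), and Clic5 to Id1 (1.30) and Tspan13 (1.62). The genes named are known from several lung cell types.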

How the data were processed

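Per the labels and methods, poly(A) mRNA of whole tissue was converted to double-stranded cDNA and libraries were made with a DNA library kit. Whether the libraries keep strand is not stated in the methods. The authors aligned reads with STAR 2.5.3a to the Ensembl release of the mouse genome and used DESeq2 to compute the FPKM values they deposited. The read counter and its handling of reads with several matches are not given in the sources used here. FPKM was analysed as log2(FPKM + 1) with limma 3.58.1 in R 4.3.3 (lmFit, eBayes with trend) over genes with an FPKM of at least 1 in at least 2 libraries, all 4 tissues in 1 fit, Benjamini-Hochberg adjustment and a log2 limit of 1. The fit was tested on simulated data. Libraries were grouped by their labels. Read numbers were recovered from the FPKM steps with GENCODE lengths: between 94.6% and 96.1% of values worth up to 50 reads came out whole within 0.02, and those of Clic5 and Emp2 did not and are not given. Gene positions are from GENCODE M21 on GRCm38. Named genes were all members, the highest genes of each list, exceptions to a list and the 2 nearest patterns of each member. A few further list genes were named after their values were seen. The members and lists were chosen with earlier results of these data known. The results of a few listed genes are not reported here.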

Additional observations from a re-analysis of the deposited data

How the results depend on the processing

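The count of 8 members higher in lung held against the mean of the others, against kidney and against liver under every alternative run, and against small intestine under all but median-of-ratios scaling, where it was 7. The alternatives were a pseudocount of 0.1, no filter on low values, median-of-ratios or quantile scaling, no prior trend, no limit on the difference, each library left out, and voom on recovered reads, which was chosen after seeing the data. The single member calls lost were those of Clic5 between lung and small intestine and of Pdpn between small intestine and liver, given above. The member differences between lung and the mean of the others ran from 2.65 (Clic5, median-of-ratios scaling) to 9.83 (Rtkn2, voom, where Ager was at 9.61) with all libraries and from 3.54 to 8.81 with a library left out, with adjusted p values of at most 0.000448. Over all genes, 8001 calls between lung and the mean of the others became 5003 after median-of-ratios scaling and 5100 after quantile normalization, and rose to 10564 with a pseudocount of 0.1 and 10486 by voom. Between lung and liver 10236 calls became 6078 and 5705 with these scalings, and 11988 and 11769 with a pseudocount of 0.1 and voom. Whether same-numbered libraries share a mouse stayed unknown. The 6 correlations of same-numbered deviations lay between -0.217 and 0.053, but with 2 libraries per tissue they cannot settle it. With the replicate number as a block, 8 members were still called in lung and the calls over all genes were 8009. At 1 to 4 reads per library, the low tissues cannot be ordered for Rtkn2.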
